A study of Mus musculus with 18 samples.

Results

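Accessible chromatin was examined at 10 genes that mark liver cells other than hepatocytes: Emr1, Clec4f and Cd5l for macrophages, Lyve1, Stab2, Pecam1 and Kdr for endothelial cells, Col1a1 for stellate cells and fibroblasts, and Krt19 and Epcam for bile duct cells. The genes were taken as a list of names, and each accessible site overlapping one of their gene bodies or lying within 20 kb of either end was kept. The list covers 10 of 22367 protein-coding genes, and 38 of 51957 sites met the rule. FAIRE-seq, which recovers and sequences DNA free of nucleosomes from fixed tissue, had been performed on livers of male mice of 7 inbred strains, namely CBA/J, A/J, DBA/2J, BALB/cJ, C3H/HeJ, AKR/J and C57BL/6J, and of 2 recombinant strains, BXH19/TyJ and BXH2/TyJ, which descend from C57BL/6J and C3H/HeJ. All mice had been fed the HF/HS (high-fat, high-sucrose) diet for 8 weeks from 8 weeks of age, so that no group on another diet enters here. Each of the 9 strains was represented by 2 mice, 18 samples in all, whose data the authors combined into 1 list of reproducible peaks per strain.

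Hepatocytes make up most of the mass of the liver. Kupffer cells, the resident macrophages, take up particles and dying cells inside the sinusoids, the fenestrated capillaries whose walls are formed by scavenging endothelial cells. Stellate cells store vitamin A beside the sinusoids and can turn into collagen-producing cells, and cholangiocytes line the bile ducts. Each of these cell types opens its own set of promoters and enhancers, and a tissue homogenate carries the sum of all of them. In such bulk samples fewer cells of a type and less accessibility per cell cannot be told apart.

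The lists held 26769 (DBA/2J) to 30613 (CBA/J) peaks. A strain was taken to call a merged site if any peak in its list shared at least 1 bp with it. Chromatin at an uncalled site may be open to a degree too weak for the peak caller. The strength of a peak was the score of the authors' caller, which is not stated to be scaled between lists, so it was turned into a percentile within the list, where 100 is the strongest peak. Read depth is not part of these lists. The study's supplement gives filtered reads per library, which differ between strains, and they were not used here. Since the 2 mice of a strain cannot be separated, no value per strain has a replicate error, no test between strains was possible, and strains are compared by their values alone.

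At least 1 site lay at 6 of the 10 marker genes, against 75.6% of all protein-coding genes. All 4 endothelial markers had sites, 31 together. Col1a1 had 6 sites. Of the bile duct markers Epcam had 1 site and Krt19 none. None of the 3 macrophage markers had a site in any of the 9 lists. Windows with 3 sites or more were found at 5 of the 10 markers, against 49.4% of all genes. The share of all protein-coding genes without a site was 24.4%. The heat map of percentiles shows that most sites were missing from several strains and that few reached the upper part of a list.

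**Figure D1:**
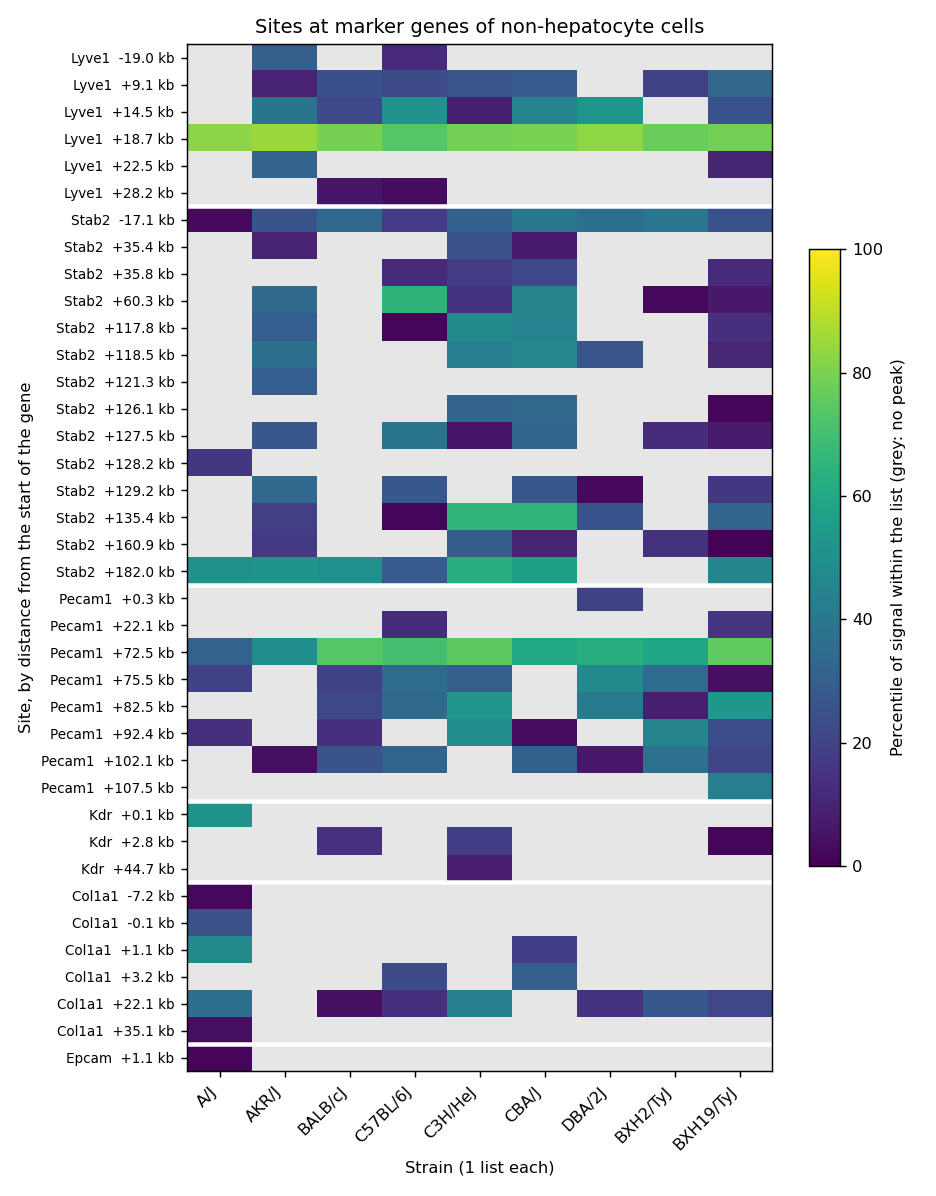
Percentile of the FAIRE-seq signal within each strain's list (colour, 0 to 100; grey, no peak) for the 38 sites at the marker genes, in rows by gene and by distance in kb from the start of the gene along its direction of transcription, with the 9 strains in columns. Only the Lyve1 site at 18.7 kb, which is the promoter of Rnf141, the Stab2 site at -17.1 kb and the Pecam1 site at 72.5 kb were called in all 9 lists.

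Emr1 encodes an adhesion receptor that is the classical surface marker of mouse macrophages. It spans chr17:57498109-57622952 on mm9 (plus strand), and its window of 165 kb held no site. Clec4f, a lectin of Kupffer cells in rodents (chr6:83594536-83606181, minus strand), and Cd5l, a protein secreted by tissue macrophages (chr3:87161803-87174996, plus strand), had none either. The nearest site lay 22.6 kb from Emr1 and was called in 5 lists. It lay 40.1 kb from Cd5l (2 lists) and 54.7 kb from Clec4f (1 list, at the promoter of Vax2). Among protein-coding genes whose window is within 25% of the same length, 13.3% had no site in the case of Emr1, 20.1% in the case of Cd5l and 22.2% in the case of Clec4f. A window without a site was thus a minority state for genes of this size, but not a rare one. These shares do not take CpG content into account. The 3 genes have CpG-poor starts, with a ratio of observed to expected CpG below 0.6 within 500 bp. Of CpG-poor genes of any length 58.5% had a site, against 75.6% of all genes. The 250 bases before the start of Clec4f are shown because the gene lacks a site although it marks the Kupffer cell. They hold 2 CpG dinucleotides, lie at chr6:83606182-83606431 on mm9 and are printed on the strand of the gene (minus). No capitals appear because none of the searched motifs, that of the macrophage factor PU.1 (GAGGAAGT) included, was matched there.
Clec4f promoter: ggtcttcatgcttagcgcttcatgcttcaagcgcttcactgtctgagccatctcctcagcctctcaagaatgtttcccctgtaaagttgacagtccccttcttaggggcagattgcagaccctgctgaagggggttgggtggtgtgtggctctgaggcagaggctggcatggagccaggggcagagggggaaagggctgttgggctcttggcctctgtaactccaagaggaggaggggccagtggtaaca

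Stab2, the stabilin receptor with which sinusoidal endothelial cells clear hyaluronan and other ligands, had the most sites. Its gene, chr10:86303943-86470770 (minus strand, 167 kb), held 12 sites, with 1 more upstream and 1 downstream. As many or more sites were found at 9.57% of genes with a window of like length, whose median was 3 sites. The site called in all 9 lists lies upstream, at -17.1 kb from the start of the gene (chr10:86487666-86487984). Its percentile was 2.46 in A/J, 17.5 in C57BL/6J, 25.2 in BXH19/TyJ, 25.5 in AKR/J, 31.0 in C3H/HeJ, 33.7 in BALB/cJ, 36.3 in DBA/2J, 39.2 in BXH2/TyJ and 40.0 in CBA/J. It stood in the weaker part of every list, and weakest in A/J. No site lay within 1 kb of the start of the gene in any list.

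Most of the other Stab2 sites were deep inside the gene. A group of 8 sites, singled out after the positions had been seen, lies within 18.3 kb (chr10:86334892-86353197), 118 to 135 kb from the start. Its widest member, chr10:86334892-86335777, overlaps coding sequence and had percentiles of 65.6 in C3H/HeJ, 65.5 in CBA/J, 32.5 in BXH19/TyJ, 25.4 in DBA/2J, 19.0 in AKR/J and 1.90 in C57BL/6J, with no peak in A/J, BALB/cJ and BXH2/TyJ. Of the 8 sites, 6 each were called in AKR/J, CBA/J and BXH19/TyJ, 5 in C3H/HeJ, 4 in C57BL/6J, 3 in DBA/2J, 1 each in A/J and BXH2/TyJ and 0 in BALB/cJ. At 3 of them an annotated internal transcript start lies within 1 kb, and these are the only sites of Stab2 that count as promoter sites. Nearer the start, the site at 60.3 kb (chr10:86410332-86410664) reached a percentile of 64.9 in C57BL/6J, with 44.7 in CBA/J, 34.5 in AKR/J, 14.7 in C3H/HeJ, 6.64 in BXH19/TyJ and 2.57 in BXH2/TyJ. A pair of neighbours at 35.4 and 35.8 kb was called in 3 and 4 lists, with percentiles of at most 24.7, and a site at 161 kb in 5 lists with at most 29.7. Beyond the end of the gene, a site inside Nt5dc3 was called in 7 lists, with percentiles of 29.0 to 63.1.

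Over all 14 Stab2 sites, CBA/J had 12, AKR/J, C3H/HeJ and BXH19/TyJ had 11 each, C57BL/6J 8, DBA/2J and BXH2/TyJ 4 each, A/J 3 and BALB/cJ 2. The lists thus fell into some with most of the sites and others with few, with C57BL/6J between them. With only the 20000 strongest peaks of each list 8 sites were left, of which CBA/J had 6, AKR/J and C3H/HeJ 4 each, DBA/2J 3, BALB/cJ and C57BL/6J 2 each, and A/J, BXH2/TyJ and BXH19/TyJ 1 each. In DBA/2J the count was 1 when a peak had to cover at least 50% of the site. The 200 bases about the summit of the upstream site and of the widest internal site are shown because the first was called in every list and the second reached the highest percentile inside the gene. Both are on the plus strand of mm9, at chr10:86487717-86487916 and chr10:86335398-86335597. The capitals mark a core of the CTCF motif (AGATGGCAG), which was added to the search after the sequences had been seen.
Stab2 upstream site: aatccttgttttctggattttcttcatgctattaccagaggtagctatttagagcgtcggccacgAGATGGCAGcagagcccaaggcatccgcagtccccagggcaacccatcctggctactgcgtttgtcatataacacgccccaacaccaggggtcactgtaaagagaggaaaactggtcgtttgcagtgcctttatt
Stab2 gene site: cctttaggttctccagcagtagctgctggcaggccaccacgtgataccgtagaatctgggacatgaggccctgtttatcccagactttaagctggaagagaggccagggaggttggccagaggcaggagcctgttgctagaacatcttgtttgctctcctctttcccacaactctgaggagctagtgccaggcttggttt

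**Figure D2:**
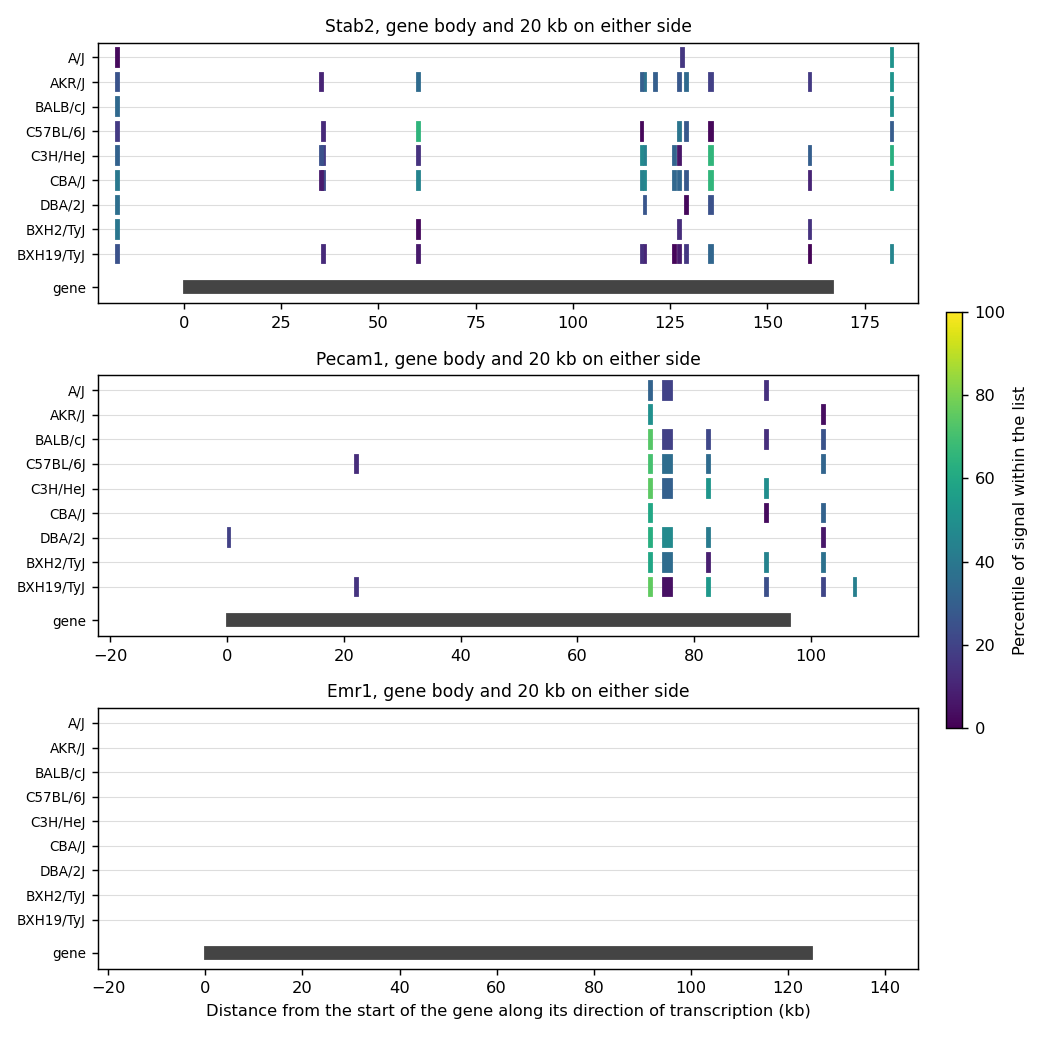
Sites called in each strain (rows) at Stab2, Pecam1 and Emr1, drawn by distance from the start of the gene along its direction of transcription in kb, with the gene body as a dark bar and colour for the percentile of signal within the list; narrow sites are widened to be visible. Stab2 has 14 sites and Pecam1 8, while the Emr1 window is empty in all 9 strains.

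Pecam1 encodes CD31, an adhesion molecule at the junctions of endothelial cells. The gene (chr11:106515531-106611942, minus strand, 96.4 kb) held 6 sites, and 2 more lay downstream. Of the genes with a window of like length 20.02% had as many or more. An intronic site at 72.5 kb from the start, chr11:106539181-106539732, was called in all 9 lists and was the strongest site of any marker gene that is not the promoter of another gene. Its percentile was 75.4 in BXH19/TyJ, 74.985 in C3H/HeJ, 73.6 in BALB/cJ, 70.3 in C57BL/6J, 62.8 in DBA/2J, 59.7 in CBA/J, 59.0 in BXH2/TyJ, 49.9 in AKR/J and 31.5 in A/J. It was in the upper part of 7 lists and lowest in A/J. Its range over the lists, 43.9 percentiles, was larger than that of 57.6% of the 5119 sites of the series that were called in all 9 lists away from promoters. The range of the Stab2 upstream site, 37.5, was larger than that of 44.0% of them.

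Further introns of Pecam1 held sites at 75.5 kb (7 lists, 4.09 to 47.3), 82.5 kb (6 lists, 8.25 to 53.2) and 92.4 kb (6 lists, 2.98 to 49.2). Another at 22.1 kb was called in C57BL/6J (12.8) and BXH19/TyJ (14.9) alone and belongs to the common set, the 2539 sites that the authors selected as least different between the inbred strains. The promoter site of Pecam1, which is also within 1 kb of the start of Gm885, was called in DBA/2J only, at percentile 19.3. The summit of the intronic site at 72.5 kb is printed below as the most strongly called stretch of an endothelial marker. It lies at chr11:106539399-106539598 (mm9, plus strand). Capitals mark the reverse complement of CCAAT, the core bound by NF-Y, and the same CTCF core as at Stab2. That core was matched at 2 of the 38 windows, these being the only 2 sites called in all 9 lists away from the promoter of another gene. The core was added to the search after the sequences had been seen, so these matches do not test it. Over the series AGATGGCAG was present in 0.94% of the windows of sites called in all 9 lists away from promoters, and in 0.84% of those called in fewer lists. With the variant AGGTGGCAG, searched together with it, these shares were 2.13% and 2.69%.
Pecam1 gene site: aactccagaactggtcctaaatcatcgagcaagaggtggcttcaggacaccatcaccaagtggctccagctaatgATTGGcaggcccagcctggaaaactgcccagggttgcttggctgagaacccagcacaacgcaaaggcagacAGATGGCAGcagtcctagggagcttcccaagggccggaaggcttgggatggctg

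Lyve1, a hyaluronan receptor of sinusoidal and lymphatic endothelium (chr7:117994121-118006467, minus strand), had 6 sites, but 1 alone inside the gene and 0 within 1 kb of a start. The site inside the gene, chr7:117997200-117997567, lies 9.08 kb from the start, overlaps coding sequence and belongs to the common set. It was called in 7 lists, at percentiles of 32.9 in BXH19/TyJ, 29.0 in CBA/J, 26.4 in C3H/HeJ, 24.4 in BALB/cJ, 23.0 in C57BL/6J, 19.8 in BXH2/TyJ and 9.51 in AKR/J, and had no peak in A/J and DBA/2J. Of the 5 flanking sites, 3 lie inside the neighbour Rnf141 and 1 inside Mrvi1. Among them the promoter of Rnf141, 18.7 kb from the start of Lyve1, was called in all 9 lists at 73.8 to 84.9. It gave 8 of the 9 percentiles over 75 among the 154 values of the marker gene sites, and the remaining one was that of Pecam1 in BXH19/TyJ. The summit of the intragenic Lyve1 site (chr7:117997267-117997466, mm9, plus strand) is shown as the counterpart of the previous sites, with TATAAA in capitals.
Lyve1 gene site: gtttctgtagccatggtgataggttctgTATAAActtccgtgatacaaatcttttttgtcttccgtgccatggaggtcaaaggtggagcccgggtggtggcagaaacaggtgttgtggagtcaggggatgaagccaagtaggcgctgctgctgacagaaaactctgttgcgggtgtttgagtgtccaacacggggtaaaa

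Kdr, the main receptor through which vascular endothelial growth factor acts, had 3 sites (chr5:76328852-76374483, minus strand), and 55.6% of genes with a window of like length had as many or more. Its promoter site, chr5:76374084-76374720, was called in A/J alone, at percentile 51.1. An intronic site 2.79 kb from the start was called in C3H/HeJ (18.7), BALB/cJ (14.4) and BXH19/TyJ (1.53). The last, 44.7 kb from the start, was called in C3H/HeJ (7.92). Kdr was the one marker with a CpG-rich start, meaning a ratio of observed to expected CpG of at least 0.6 within 500 bp. Its value was 0.665, against 0.057 to 0.466 at the other 9 genes. Sites lay within 1 kb of 90.8% of CpG-rich gene starts in at least 1 list, and of 67.8% in all 9 lists, and 95.9% of CpG-rich genes had a site anywhere in the window.

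Col1a1, a chain of type I collagen (chr11:94797538-94814356, plus strand), had 6 sites, of which A/J had 5 and AKR/J none. The site over the start, chr11:94797288-94797673, was called in A/J alone at percentile 24.95. A site at 1.11 kb was called in A/J (47.6) and CBA/J (18.6), and 1 at 3.25 kb, beside another transcript start, in CBA/J (30.7) and C57BL/6J (22.8). The most shared site lay downstream, at 22.1 kb, with percentiles of 43.5 in C3H/HeJ, 37.1 in A/J, 27.5 in BXH2/TyJ, 21.1 in BXH19/TyJ, 14.6 in DBA/2J, 13.5 in C57BL/6J and 3.81 in BALB/cJ. The promoter of the neighbouring Sgca was called in A/J alone (3.81) and was the only marker gene site (1 of 38) in the authors' variable set, which takes 2539 (5%) of the 50775 sites of the inbred strains. The common set is as large and held 2 of the 38. Kdr and Col1a1 are the only markers with a site overlapping the start of the gene, in A/J each time, and the 250 bases before their starts are printed for this reason on the strand of the gene, at chr5:76374484-76374733 (Kdr, minus strand) and chr11:94797288-94797537 (Col1a1, plus strand). There are 16 CpGs in that of Kdr and 7 in that of Col1a1. Capitals mark GGGCGG, the box bound by SP and KLF factors, and CCAAT, in either orientation.
Kdr promoter: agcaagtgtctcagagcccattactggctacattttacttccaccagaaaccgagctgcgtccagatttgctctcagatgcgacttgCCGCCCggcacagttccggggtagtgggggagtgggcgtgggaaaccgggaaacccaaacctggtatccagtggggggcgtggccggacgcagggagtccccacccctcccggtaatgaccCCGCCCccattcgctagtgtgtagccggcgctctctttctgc
Col1a1 promoter: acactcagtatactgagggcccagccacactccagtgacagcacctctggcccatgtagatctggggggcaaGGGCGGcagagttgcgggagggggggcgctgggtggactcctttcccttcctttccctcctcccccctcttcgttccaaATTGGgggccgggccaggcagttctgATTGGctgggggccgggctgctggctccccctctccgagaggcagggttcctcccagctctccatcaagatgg

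The 2 bile duct markers had 1 site between them. Epcam, an epithelial adhesion molecule (chr17:88035319-88050446, plus strand), had a site 1.08 kb from its start in A/J alone, at percentile 1.70. Krt19, a keratin of cholangiocytes (chr11:100002124-100009979, minus strand), had no site, and the nearest was 20.3 kb from the gene, just outside the window, in 3 lists. Of genes with a window of like length 32.8% had no site.

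Taken over the 38 sites, the median number of lists was 3.5, against 5 over all other sites. All 9 lists called 3 sites (7.89%, 95% exact Clopper-Pearson interval 1.66 to 21.4%), compared with 26.6% of all sites. A single list called 10 (26.3%), against 26.5% of all sites, and A/J alone called 6 (15.8%, interval 6.02 to 31.3%), against 11.4%. Intervals cover counting error only, and neighbouring sites are not independent. The median percentile over the 154 calls was 27.5 (interquartile range 14.0 to 44.5), against 51.3 over all other sites. Promoters reach higher percentiles than other sites, so both kinds were also compared apart. At the 11 marker gene sites within 1 kb of any start the median was 30.7 over 25 values, 9 of them from the Rnf141 promoter. At the 8 of these 11 sites that are promoters of a marker alone it was 26.004 over 14 values, against 73.3 at other promoter sites. These were not matched for CpG content. The median ratio of observed to expected CpG was 0.39 at the 8 sites and 0.67 at other promoter sites. Internal starts of Stab2 gave 3 of the 8. At the 27 marker gene sites away from any promoter the median was 26.9, against 38.3 at other such sites, and 1 of 129 values (0.78%) was over 75, against 10.1%. Of these 27 sites 2 were called in all 9 lists (7.41%, interval 0.91 to 24.3%), compared with 14.8% of all sites away from promoters, and 3 in a single list (11.1%, interval 2.35 to 29.2%), compared with 30.3%. Any gene's promoter accounted for 11 of the 38 sites (28.9%), against 33.3% of all sites. With the Rnf141, Gm885 and Sgca promoters left out, the highest of 143 values was 75.4. With the 20000 strongest peaks of each list, 19 of the 38 sites were left and 1 was called in all 9 lists.

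A promoter site, within 1 kb of any annotated start, was found in at least 1 list at 5 of the 10 markers, against 59.6% of protein-coding genes, and in all 9 lists at none, against 40.8%. Limited to the start of the gene model, the count was 4 (Pecam1, Kdr, Col1a1 and Epcam), against 56.7% of genes, and again none in all 9 lists, against 38.5%. Every one of these 4 starts was called in 1 or 2 lists. The starts of all genes are a mixture, since CpG-rich starts were called far more often. Among the 9 markers with a CpG-poor start, 3 had a site there in at least 1 list, against 28.1% of CpG-poor genes, and 0 in all 9 lists, against 14.0%. In any part of the window, 5 of these 9 had a site, against 58.5%. Without the A/J list the number of markers with a promoter site was 3.

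A/J accounted for 6 of the 10 sites called in a single list, against 43.0% over the series, and the promoter sites of Kdr and Epcam, 2 of 10 markers, were called in A/J only, against 4.18% of all protein-coding genes. Of the 6 marker gene sites called in A/J only, 5 were at promoters (83.3%), against 42.0% of all A/J-only sites, and their mean GC content was 63.5% ± 5.97 (SD, n = 6 sites). It was 47.7% ± 8.46 (n = 4) at sites called in 1 other list only and 50.6% ± 4.17 (n = 28) at sites called in 2 lists or more. The same order was seen over the whole series, with 61.9%, 49.7% and 54.3%. The part of GC content in the A/J calls was not tested.

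**Figure D3:**
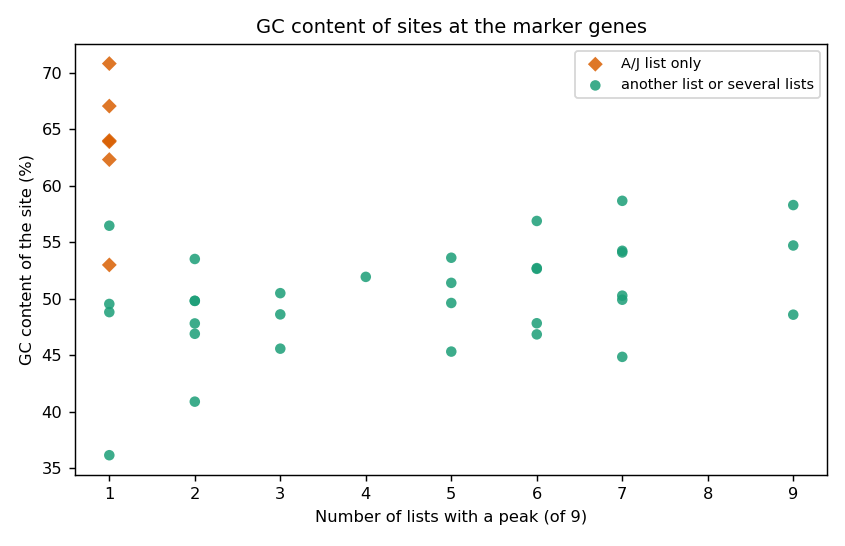
GC content in % of each of the 38 marker gene sites against the number of lists, of 9, that called it; diamonds are sites called in the A/J list only. The A/J-only sites lie between 53.0% and 70.8%, and the sites called in 2 lists or more between 40.9% and 58.7%.

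In addition, 46 further marker genes were counted, in lists chosen with earlier results of these data known. They therefore do not test whether the pattern of each cell type extends beyond its markers. Of 10 more macrophage genes 9 had no site, among them Marco and Timd4, which are scavenger and phosphatidylserine receptors, and the complement receptor Vsig4. All 10 have a CpG-poor start, and of CpG-poor genes over the genome 58.5% had a site. The 9 are not independent, since 3 of them are neighbouring C1q complement genes whose windows overlap. The exception was Cd68, a lysosomal glycoprotein, whose window held 12 sites, 10 of them at promoters of Eif4a1, Fxr2, Mpdu1, Senp3, Sox15 or Tnfsf13, and none at its own start. A promoter site was therefore found at 0 of the 13 macrophage genes in any list. All 13 have a CpG-poor start, and 28.1% of CpG-poor gene starts over the genome had a site in at least 1 list. Of 10 further endothelial genes 9 had a site, the exception being Fcgr2b, an inhibitory Fc receptor, and 8 had a promoter site. Over all protein-coding genes the shares were 75.6% and 59.6%. Of 10 genes of other tissues, 9 likewise had a site and 5 a promoter site. Among the 10 endothelial genes Stab1, the paralogue of Stab2, alone had a promoter site in all 9 lists. It lay at an internal start, with a median percentile of 42.9 (14.3 to 53.7), while the main start was called in 2 lists.

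Stellate and bile duct genes lay between these lists in how many had a site or a promoter site in any list, but not in promoter sites called in all 9 lists, of which the bile duct genes had more (2) than the endothelial genes (1). The lists differ in CpG-rich starts, found at 4 stellate, 2 bile duct, 1 endothelial and 0 macrophage genes. Among CpG-poor genes the start was called in any list at 1 of 6 stellate and 3 of 8 bile duct genes. For endothelial genes it was 6 of 9 and for macrophage genes 0 of 10, against 28.1% over the genome. Of 10 stellate and fibroblast genes 5 had a site and 4 a promoter site, 0 of them in all 9 lists. The smooth muscle actin Acta2 and the collagens Col1a2 and Col3a1 were among the 5 without a site. Of 10 bile duct genes 7 had a site and 5 a promoter site. Over all protein-coding genes 75.6% had a site and 59.6% a promoter site. The promoter of Sox9, which encodes a transcription factor of the biliary lineage, was called in all 9 lists (median percentile 63.7, 44.4 to 86.2), whereas the keratin Krt7 and the chloride channel Cftr had no site. The Sox9 start is CpG-rich (ratio 0.804), and 67.8% of CpG-rich starts were called in all 9 lists. Without the A/J list the bile duct genes with a promoter site numbered 3. With the 20000 strongest peaks of each list, promoter sites were found at 2 stellate and 3 bile duct genes.

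**Figure D4:**
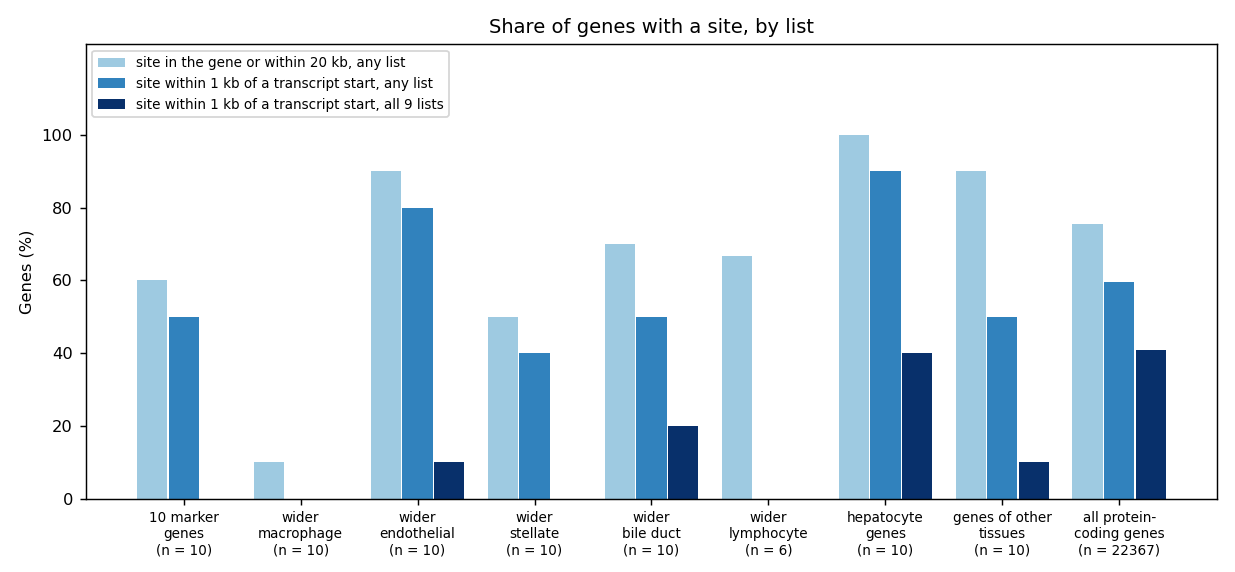
Share of genes in % with a site in the gene or within 20 kb in any list, with a promoter site in any list and with a promoter site in all 9 lists, for the 10 marker genes, the wider lists, 10 hepatocyte genes, 10 genes of other tissues and all 22367 protein-coding genes. Promoter sites in all 9 lists were found at 0 of the 10 markers, 4 of the 10 hepatocyte genes and 40.8% of all genes.

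A list of 10 hepatocyte genes, also chosen with earlier results of these data known, was counted for comparison. All 10 have a CpG-poor start. Each had at least 1 site, 91 in all, 9 had a promoter site and 4 had one in all 9 lists. Of CpG-poor genes over the genome 58.5% had a site. At their starts 28.1% had one in at least 1 list and 14.0% in all 9. Hnf4a, the hepatocyte nuclear receptor, and Pck1, which controls gluconeogenesis, had the highest median percentiles at their promoters, 81.2 and 81.1. The lowest were 5.65 at Cps1 of the urea cycle, in 1 list, and 10.8 at the tyrosine aminotransferase gene Tat, in 4 lists. The promoter sites of the markers therefore overlapped with the lower end of the hepatocyte genes, and the upper end of the hepatocyte genes exceeded every one of them. Among the 20000 strongest peaks of each list, 5 of the 10 hepatocyte genes had a promoter site.

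The strains called between 12 and 24 of the 38 sites. BXH19/TyJ had 24 (63.2%), C3H/HeJ 21, CBA/J and C57BL/6J 20 each, AKR/J 18, A/J 14, BALB/cJ 13, and DBA/2J and BXH2/TyJ 12 each (31.6%). Over all 51957 sites the lists differed less, with 46.7% (DBA/2J) to 56.9% (CBA/J) called. Away from promoters 38.5% of all sites were called in A/J, 39.7% in DBA/2J and 48.6 to 52.0% in the other lists except BXH2/TyJ, which lay between. BALB/cJ thus had few marker gene sites in a list that called 50.9% of all sites away from promoters. BXH19/TyJ, with the most marker gene sites, had the lowest median percentile at them, 18.5, against 22.4 to 33.0 in the other lists. With only the 20000 strongest peaks of each list, its Stab2 sites fell from 11 to 1.

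The endothelial genes did not order the strains in the same way. AKR/J had 11 of 14 sites at Stab2 and 5 of 6 at Lyve1, but 2 of 8 at Pecam1. BALB/cJ had 2 at Stab2, 4 at Lyve1 and 5 at Pecam1. BXH19/TyJ had 11, 4 and 7, and BXH2/TyJ had 4, 2 and 5. DBA/2J had 4, 2 and 5, and A/J had 3, 1 and 3. Sites called at the endothelial markers, flanking ones inside neighbouring genes included, numbered 8 in A/J to 23 in BXH19/TyJ. No site at a macrophage marker was called in any strain, so the strains could not differ there.

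**Figure D5:**
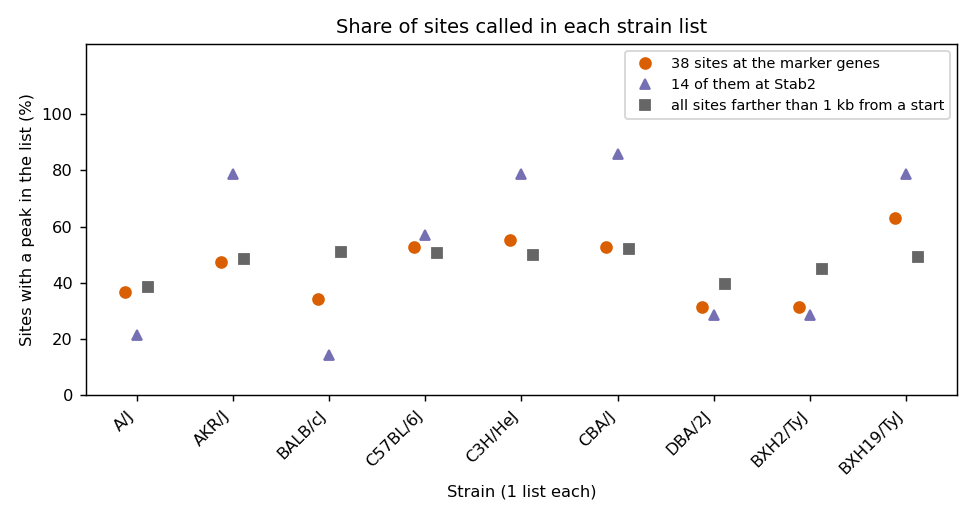
Share in % of the 38 marker gene sites (circles), of the 14 Stab2 sites (triangles) and of all sites of the series farther than 1 kb from a transcript start (squares) that had a peak in each strain's list. Stab2 ranged from 2 of 14 sites in BALB/cJ to 12 of 14 in CBA/J, while the squares lie between 38.5% and 52.0%.

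The recombinant strains could be set beside their parents. Of the 14 marker gene sites called in both C57BL/6J and C3H/HeJ, BXH19/TyJ had all 14 and BXH2/TyJ had 9 (64.3%), compared with 93.9% and 89.9% over all 22612 such sites. Of the 13 sites called in 1 parent alone, 6 in C57BL/6J and 7 in C3H/HeJ, BXH19/TyJ had 3 and 5, and BXH2/TyJ had 1 and 2. Over all such sites BXH19/TyJ had 33.6% and 47.3%, and BXH2/TyJ had 32.4% and 44.4%. Of the 11 called in neither parent BXH19/TyJ had 2 (18.2%) and BXH2/TyJ 0, against 14.8% and 19.6% over all sites. At Stab2 the 7 sites shared by the parents were all called in BXH19/TyJ and 3 of them in BXH2/TyJ. At Pecam1 the 3 shared sites were called in both. The marker gene sites called had a median percentile of 18.5 in BXH19/TyJ and 31.3 in BXH2/TyJ. Which parent's sequence each strain carries at these genes was not analysed here.

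Sequence features that the choice of genes did not use were read in the 200 bases about the summit of each site, with both strands searched. CCAAT was found at 13 of 38 marker gene sites (34.2%), against 25.1% of all sites. GGGCGG was found at 7 (18.4%), against 25.1%, but most of that share came from promoters (52.0% of promoter sites), and away from promoters it was found at 6 of 27 marker gene sites (22.2%), against 11.7%. CCAAT away from promoters was at 9 of the 27 (33.3%), against 23.5%. AGATAA, bound by GATA factors, was found at 3 (7.89% against 5.98%), TATAAA at 3 (7.89% against 3.50%), TGACTCA, bound by AP-1, at 2 (5.26% against 4.42%), the forkhead motif TGTTTAC at 1 (2.63% against 3.61%) and the PU.1 motif at 1 (2.63% against 1.85%), in a flank of Lyve1 inside Rnf141. The HNF4 motif CAAAGTCCA, the C/EBP motifs TTGCGCAA and TTGCACAA and the ETS motif CCGGAAGT, whose last letters GGAAGT are also in the PU.1 motif, were found at 0 of 38, against 1.44%, 1.42% and 2.15% of all sites. At these low shares 38 windows cannot show a difference. In the 250 bases before the start, GGGCGG was present at Kdr, Col1a1 and Epcam, against 39.6% of all protein-coding genes, CCAAT at Col1a1, against 35.0%, and TGACTCA at Lyve1, against 3.85%.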

How the data were processed

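FAIRE-seq of mouse liver was available as 1 peak list for each of 9 strains (2 mice each). Per the study's methods, the authors mapped reads with bowtie to copies of mm9 carrying the SNPs of each strain, ran F-seq on every library and used IDR to join the 2 replicates. Which of mm9 or the C3H/HeJ copy served for the BXH strains is not stated. For the versions of these tools and the cutoff of IDR, none is given in the sources used here. In the deposited files are positions on mm9 and, in column 7, a signal score of the authors' caller. The authors also deposited their variable and common sites (5% of 50775 inbred sites each, chosen on these libraries with DESeq) as positions.

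The 9 lists were merged into 51957 sites, and genes and sequence came from GENCODE M1 on NCBIM37, which is mm9. Scores were turned into percentiles within a list, with the strongest overlapping peak per site. Windows were the gene body and 20 kb on either side, promoters were within 1 kb of a transcript start, and CpG ratios were taken within 500 bp of the gene start. All value columns used belong to a sample or a strain, and 0 were left unmapped. Promoter sequences were read from the genome, and the RefSeq tables were not used.

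No statistical tests were made, because each strain has 1 list, and counts were set beside the same counts over all genes or sites. The members and lists were chosen with earlier results of these data known. Named were the 10 members, their sites, the genes of each wider list with a promoter site in all 9 lists, up to 3 without a site in the order of the list, the 2 highest and 2 lowest hepatocyte and other-tissue genes by promoter percentile, and single exceptions named after their values were seen. A few genes and 1 sequence falling under it are not reported here. Merging, calling and percentiles were tested on simulated data and were correct in 50 of 50 runs each. Alternatives were other windows, overlaps, promoter distances and gene sets, the 20000 strongest peaks and each list left out. Tools were matplotlib 3.10.9, pysam 0.24.0, pandas 2.3.3, numpy 2.4.6 and scipy 1.17.1 in Python 3.11.15.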

Additional observations from a re-analysis of the deposited data

How the results depend on the processing

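No paired analysis was possible because each list combines both replicates and no result comes from a test. For the same reason no replicate could be left out, and strain lists were left out instead. A count was taken as stable when it stayed within 1.5 times its main value, the median percentile when it stayed within 24.7 to 31.5 and the share of all genes when it stayed within 74.99 to 76.12% (95% intervals). The interval of the median treats 154 values as independent, although they are repeated calls of 38 sites, so it is too narrow to measure their spread. By the rule for stability 62 of 63 values with 1 list left out were stable. Some of these could hardly move. No marker gene site was called in exactly 8 lists, and DBA/2J and BXH2/TyJ shared the lowest count, 12 sites. Of the other 58 alternatives to the main values 46 were stable. These 58 kept all lists, except in the setting with the inbred strains only. The rule compared sizes only, so it could not show a reversal. With the 20000 strongest peaks of each list there were 19 sites at the marker genes, 1 of them in all 9 lists, 3 markers with a promoter site, 4 to 9 sites per list and a median percentile of 49.9, since weak peaks were removed. Windows of 5 kb and the gene body alone left 1 site called in all 9 lists each, and the gene body alone left 6 sites in the list with fewest. With lists lacking a peak set to percentile 0 the median percentile was 0, since most sites were called in fewer than 5 lists. The share of all protein-coding genes with a site was 76.9% on autosomes and 85.7% among genes within the length range of the markers. Leaving out 1 list gave 32 to 38 sites, 3 to 3 in all remaining lists, 3 to 5 markers with a promoter site (3 without A/J), 0 to 0 with one in all lists, a median percentile of 25.96 to 29.89, 12 to 12 sites in the list with fewest and 21 to 24 in the list with most. Among the 78 values of single lists of genes and of Stab2 in each strain, 64 were within 1.5 times the main value.

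The lists hold only peaks above the threshold of the caller and no read counts, so that an absent site sets no upper limit on accessibility.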

Other observations

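Lymphocytes, which pass through the sinusoids, were looked at through 6 genes. Of these 4 had a site in their window and 0 had a promoter site in any list. All 6 have a CpG-poor start. Of CpG-poor genes over the genome 58.5% had a site in the window and 28.1% had one at the start in at least 1 list. Ptprc, the common leukocyte phosphatase, and Ms4a1, a B cell surface protein, had no site. Sites at Cd3g and Cd79a included promoters of their neighbours Ube4a, Arhgef1 and Rps19.

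Of 10 genes of brain, muscle, pancreas, retina, germ cells and lung, 9 had a site in their window, 7 when promoters of other genes were left out, and 5 had a promoter site. Ins2, which encodes insulin, had the highest median percentile, 71.5 in all 9 lists, at a transcript start other than the start of the gene, where 0 lists had a site. Slc17a7, a glutamate transporter of neurons, followed with 43.6 (2 lists). The lowest were 5.64 at the muscle regulator Myog (1 list) and 17.7 at the synaptic gene Snap25 (3 lists). With the 20000 strongest peaks of each list 3 of the 10 had a promoter site. Of the 10 marker genes 5 had a promoter site with all peaks, against 59.6% of all protein-coding genes.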
